A study of Mus musculus with 6 samples.

Results

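The cullin and F-box ubiquitin ligase genes were examined in RNA-Seq of primary renal tubular epithelial cells (TECs) from C57BL/6 mice, cultured cells taken from kidney tubules. The members were the protein-coding genes of the deposited table named Cul, Fbxl, Fbxo or Fbxw with a number, together with Skp1a, Skp2, Rbx1 and Rnf7, which gave 87 of the 30315 genes listed. They were 8 cullins, 2 RING subunits, the adaptor Skp1a and 76 F-box genes, of which 19 belong to the leucine-rich repeat branch (Fbxl, with Skp2), 20 to the WD40 repeat branch (Fbxw) and 37 to the branch named for other or no such repeats (Fbxo). The rule uses gene names and no measured value, although it was set with earlier results of these data known.

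The 6 libraries were 3 with an siRNA directed at Sox9 (siSox9) and 3 with the control siRNA siNC, and nothing in the labels says whether they came from separate cultures. In both groups the siRNA was given 12 h before hypoxia/reoxygenation (H/R), which was 6 h in glucose-free medium at 1.0% oxygen and then 18 h in complete medium, so every library is from cells after H/R and none from cells left in normal oxygen. The values are FPKM, read counts scaled to the exon length of the gene and to the size of the library. The library totals recovered from them ran from 23893197 to 25725743 reads, so depth was alike, and a read on 1 kb of exon was worth 0.0389 to 0.0419 FPKM depending on the library. Sox9, the transcription factor targeted, fell to 34.2% of siNC, with 8.93, 8.61 and 9.07 FPKM with siSox9 and 25.7, 26.5 and 25.6 FPKM with siNC (log2 fold change -1.45, SE 0.034, limma adjusted p = 7.03e-06).

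Cullin-RING ligases attach ubiquitin to chosen proteins, most of which are then degraded by the proteasome. A cullin is the scaffold: at one end it holds a RING subunit, Rbx1 or Rnf7, which brings in the ubiquitin-carrying E2 enzyme, and at the other an adaptor with an exchangeable substrate receptor. In the SCF ligases the scaffold is Cul1, the adaptor is Skp1 and the receptor is an F-box protein, so that each F-box gene stands for another set of substrates, among them cyclins, inhibitors of the cell cycle, β-catenin and regulators of NF-κB. The question here was how the transcripts of these subunits differed between TECs with and without the knockdown of Sox9.

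Of the 87 members, 63 had a mean of at least 1 FPKM over the 6 libraries and were tested. With limma on log2(FPKM + 1) and an adjusted p under 0.05 over all 12009 genes tested, 18 of the 63 members changed, which is 28.6% beside 30.4% of all genes. Of these, 6 rose (9.52% of the members, 12.8% of all genes) and 12 fell (19% of the members, 17.6% of all genes). For 24 members, or 38.1%, every library of one group lay above every library of the other, beside 46.3% of all genes. The median log2 fold change was -0.027 over the 63 members and -0.014 over the 12009 genes. The share of members called was thus near that of genes at large. With 3 libraries a group an exact permutation test of a single gene cannot go below p = 0.1, and the limma p-values measure only the spread between these libraries.

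**Figure D1:**
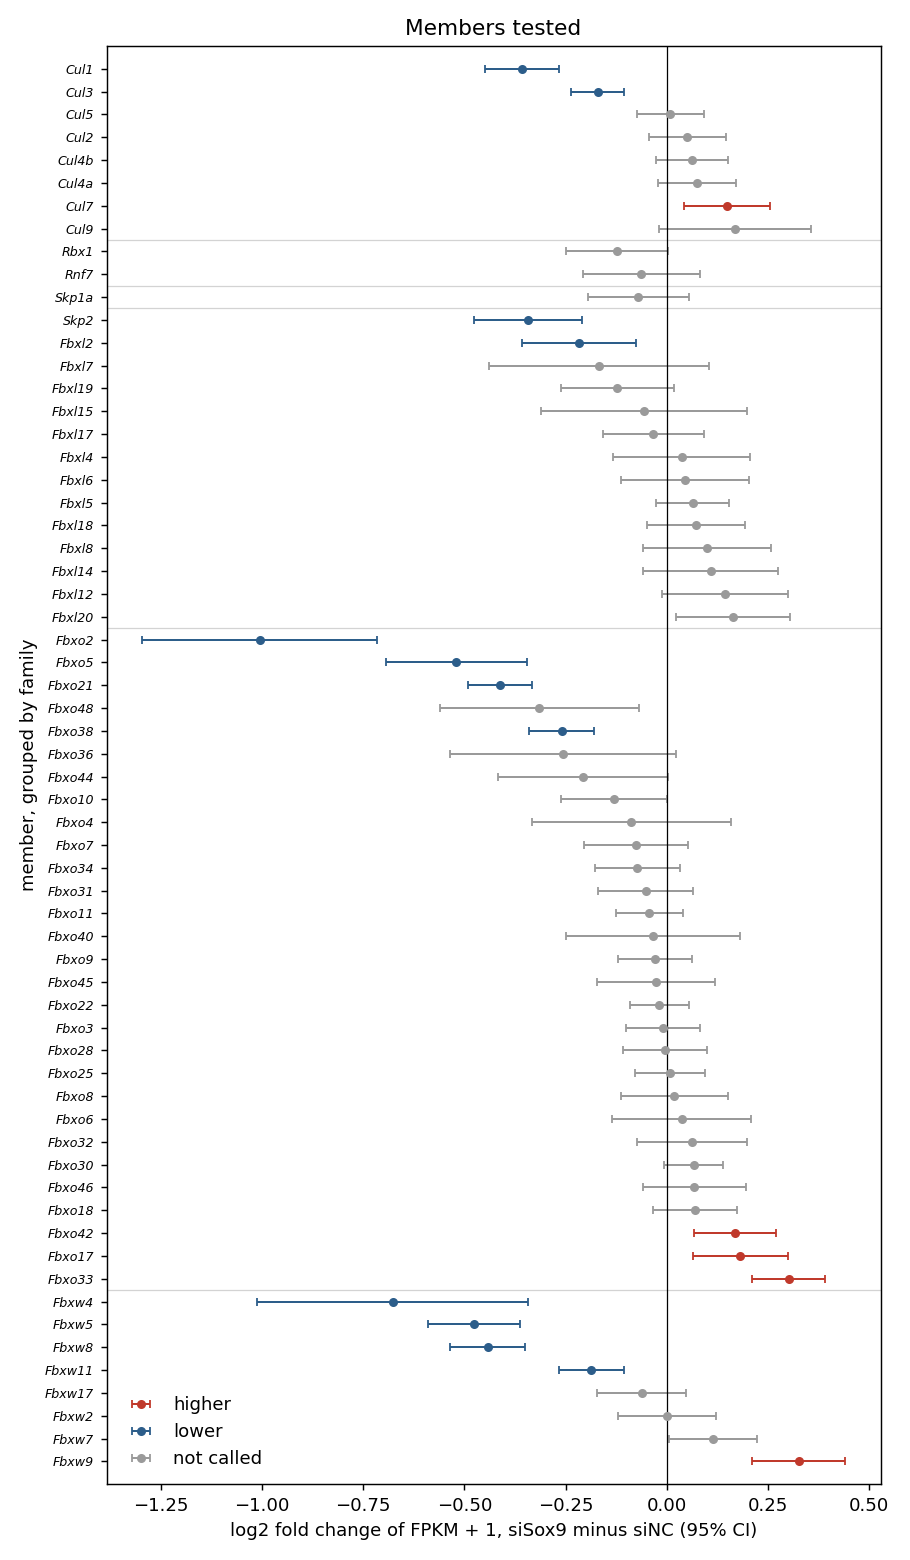
Log2 fold change of FPKM + 1 (siSox9 minus siNC) with its 95% confidence interval from limma for 62 of the 63 members tested, grouped by family. Blue points (12) were lower and red points (5) higher past the threshold, and grey points (45) were not called; Fbxo2 at -1.01 and Fbxw4 at -0.68 lie farthest below 0 and Fbxw9 at 0.33 farthest above.

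Among the scaffolds, Cul1 showed the largest difference. It had 28.7, 27.3 and 28.8 FPKM with siSox9 and 36.1, 38.1 and 35.3 FPKM with siNC, which is 28.3 ± 0.825 against 36.5 ± 1.41 FPKM (SD, n = 3 each), or 77.4% of siNC. Every siSox9 library lay below every siNC library (log2 fold change -0.36, SE 0.039, limma adjusted p = 0.000799). The gene lies on chromosome 6 from 47453398 to 47526139, and 4.75% of its exon bases are shared with a gene on the opposite strand. Cul3, the scaffold for receptors with a BTB domain, had 24.4, 24.0 and 24.1 FPKM with siSox9 and 27.7, 27.1 and 27.3 FPKM with siNC. It was thus lower by a smaller but tightly repeated amount, 88.4% of siNC (log2 fold change -0.17, SE 0.028, limma adjusted p = 0.00406), although with values rescaled to TPM it no longer passed (adjusted p = 0.0825).

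Cul7, a scaffold that works with the F-box protein Fbxw8, was the only cullin called higher. Its values were 11.9, 12.3 and 11.8 FPKM with siSox9 and 11.1, 10.03 and 11.1 FPKM with siNC (log2 fold change 0.15, SE 0.045, limma adjusted p = 0.0436). The lowest siNC library, replicate 2, stood apart from the other two, and the call was lost when that library was left out (adjusted p = 0.0875). It was also lost without siNC replicate 3 (0.0649) or any of the siSox9 libraries (0.0821 to 0.132), without the filter, with TPM and in the fit blocked on replicate number (0.0776).

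The other 5 cullins were not called. Cul4b and Cul4a, the paralogous scaffolds that bind receptors through Ddb1, had 31.5, 32.9 and 34.2 FPKM and 25.8, 24.6 and 23.4 FPKM with siSox9, beside 30.8, 31.7 and 31.8 FPKM and 23.5, 23.0 and 23.4 FPKM with siNC. Their groups overlapped, with log2 fold changes of 0.06 and 0.07 (limma adjusted p = 0.252 and 0.209). Cul2 and Cul5, the scaffolds that use elongins B and C, differed by 0.05 and 0.01 on the log2 scale (adjusted p = 0.383 and 0.884). Cul9, which is known to bind p53 in the cytoplasm and was the lowest of the cullins, had 2.05, 1.80 and 1.68 FPKM with siSox9 and 1.69, 1.34 and 1.57 FPKM with siNC, a log2 fold change of 0.17 with an adjusted p of 0.152, though voom on recovered reads called it higher (0.27, adjusted p = 0.0282). Run without the filter on low genes, voom did not call Cul9 (0.27, adjusted p = 0.0539).

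Within each library the cullins can be compared per exon length. In siNC the order by mean FPKM was Cul1, Cul4b, Cul3, Cul4a, Cul2, Cul7, Cul5 and Cul9, and in siSox9 Cul4b was first and Cul1 second. Cul1 made up 23.5, 24.6 and 22.8% of all cullin FPKM with siNC and 19.3, 18.6 and 19.4% with siSox9, with no overlap (p = 0.1 by exact permutation, two-sided, which is the floor for this design). The shares of the other 7 cullins, which are tied to it by adding up to the whole, did not overlap either, that of Cul3 being lower with siSox9 and those of the other 6 higher. Cul4a and Cul3 exchanged places too, Cul4a lying above Cul3 in the siSox9 means by less than the spread of Cul4a (24.6 ± 1.24 against 24.2 ± 0.211 FPKM). All 8 cullins together had 148 ± 1.13 FPKM with siSox9 and 154 ± 0.494 FPKM with siNC (SD, n = 3 each).

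The adaptor and the RING subunits were not called. Skp1a, the member with the highest level, had 69.0, 66.0 and 73.9 FPKM with siSox9 and 69.7, 77.4 and 72.4 FPKM with siNC (log2 fold change -0.07, SE 0.053, limma adjusted p = 0.358). Rbx1 had 33.9, 36.0 and 35.7 FPKM with siSox9 and 35.8, 41.2 and 38.5 FPKM with siNC (log2 fold change -0.12, SE 0.053, adjusted p = 0.124), and passed as lower when siNC replicate 1 was left out (-0.17, adjusted p = 0.0267). Rnf7, the RING subunit known to pair with Cul5, had 36.3, 37.8 and 43.3 FPKM with siSox9 and 40.4, 41.1 and 40.9 FPKM with siNC (log2 fold change -0.06, SE 0.062, adjusted p = 0.48), and passed as lower when siSox9 replicate 3, its highest library, was left out (-0.14, adjusted p = 0.0344). Each of these genes had overlapping groups. After Skp1a, Rnf7 and Rbx1, the highest mean levels over the 6 libraries were those of Cul1 and Cul4b.

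**Figure D2:**
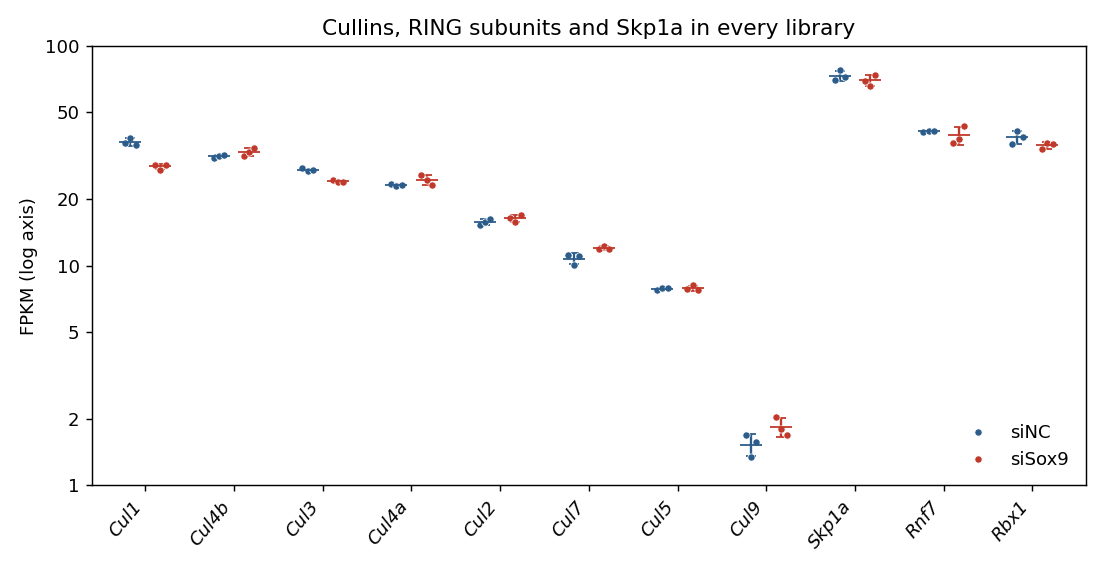
FPKM on a log axis of the 8 cullins, ordered by their siNC mean, and of Skp1a, Rnf7 and Rbx1 in each library. Points are libraries, bars the mean with its SD (n = 3), blue siNC and red siSox9; Cul1 and Cul3 are lower with siSox9 without overlap, Cul7 is higher without overlap, and the groups of the other 8 genes overlap.

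Among the F-box genes, 52 of 76 were tested; 5 rose, 10 fell and 37 were not called, with a median log2 fold change of -0.028; over all genes 12.8% rose and 17.6% fell. By branch, 4 of 8 tested Fbxw genes fell and 1 rose, 4 of 29 Fbxo genes fell and 3 rose, and 2 of 15 Fbxl genes fell and 1 rose, with no test between the branches. Added up, the F-box genes had 415 ± 2.47 FPKM with siSox9 and 435 ± 5.00 FPKM with siNC (SD, n = 3 each).

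Fbxo2 changed most of all members. It encodes a receptor that recognises the sugar chains of glycoproteins. It had 1.54, 1.59 and 2.44 FPKM with siSox9 and 4.35, 4.50 and 5.22 FPKM with siNC, which rest on 51, 52 and 75 and on 139, 140 and 167 recovered reads. All siSox9 libraries were below all siNC libraries, at 39.6% of their mean (log2 fold change -1.01, SE 0.12, limma adjusted p = 0.00136). Fbxo6 and Fbxo44, of its sugar-binding subfamily, were not called: Fbxo6 had 12.3, 12.0 and 12.5 FPKM with siSox9 and 10.58, 13.3 and 12.0 FPKM with siNC (log2 fold change 0.04, adjusted p = 0.739), and Fbxo44 had 2.07, 1.52 and 1.58 against 2.22, 1.96 and 2.22 FPKM (log2 fold change -0.21, adjusted p = 0.122), and passed as lower when siSox9 replicate 1 was left out (-0.30, adjusted p = 0.0335). Fbxo17, of the same subfamily, rose, with 7.75, 7.84 and 7.995 FPKM with siSox9 and 6.63, 7.38 and 6.46 FPKM with siNC (log2 fold change 0.18, SE 0.050, adjusted p = 0.0321). The call for Fbxo17 was lost when any library but siNC replicate 2 was left out (adjusted p up to 0.0991), and also without the filter and in the blocked fit (0.0504).

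Fbxo5, Skp2 and Fbxw5, receptors with known substrates or targets in the cell cycle, were lower. Fbxo5, also called Emi1, an inhibitor of the anaphase-promoting complex, had 4.09, 3.74 and 4.76 FPKM with siSox9 and 6.31, 6.24 and 6.73 FPKM with siNC (65.3% of siNC, log2 fold change -0.52, SE 0.074, limma adjusted p = 0.00246). Skp2, the receptor for the inhibitor p27, had 1.68, 1.72 and 1.89 FPKM with siSox9 and 2.45, 2.43 and 2.62 FPKM with siNC (70.4% of siNC, log2 fold change -0.34, SE 0.057, adjusted p = 0.00455). Neither gene had overlapping groups. Fbxw5, a receptor known for the centriole protein SAS-6, had 13.6, 13.0 and 12.6 FPKM with siSox9 and 19.5, 17.5 and 18.7 FPKM with siNC (log2 fold change -0.48, SE 0.048, adjusted p = 0.000612). Fbxw7, the receptor for cyclin E, Myc and Notch, had 5.55, 5.49 and 5.44 FPKM with siSox9 and 5.29, 5.01 and 4.71 FPKM with siNC; the groups did not overlap, yet the difference did not pass (log2 fold change 0.11, SE 0.046, adjusted p = 0.102), except with quantile-normalized values (0.15, adjusted p = 0.0479).

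Promoter sequences from RefSeq (GRCm38.p6, 250 bases before to 50 bases after a gene's start) were matched for 67 of the 87 members and for 14 of the 18 called. Those of the largest fall (Fbxo2), of 2 of these receptors (Fbxo5, Skp2), of the most changed cullin (Cul1) and of the largest rise (Fbxw9) are shown, read 5′ to 3′ on the strand of the gene, with matches to the searched motifs in capitals. They are chr4:148160418-148160717 (+ strand), chr10:5805416-5805715 (- strand), chr15:9140405-9140704 (- strand), chr6:47454069-47454368 (+ strand) and chr8:85059869-85060168 (+ strand). For Skp2 and Cul1, which have 2 and 3 windows in the table, the window nearest the start of the principal transcript in GENCODE M21 is given.
Fbxo2: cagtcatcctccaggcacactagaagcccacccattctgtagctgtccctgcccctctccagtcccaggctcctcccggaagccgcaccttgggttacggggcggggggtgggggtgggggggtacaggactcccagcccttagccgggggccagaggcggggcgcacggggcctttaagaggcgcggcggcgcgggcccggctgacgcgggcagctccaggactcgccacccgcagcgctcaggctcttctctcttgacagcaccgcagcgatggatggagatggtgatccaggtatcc
Fbxo5: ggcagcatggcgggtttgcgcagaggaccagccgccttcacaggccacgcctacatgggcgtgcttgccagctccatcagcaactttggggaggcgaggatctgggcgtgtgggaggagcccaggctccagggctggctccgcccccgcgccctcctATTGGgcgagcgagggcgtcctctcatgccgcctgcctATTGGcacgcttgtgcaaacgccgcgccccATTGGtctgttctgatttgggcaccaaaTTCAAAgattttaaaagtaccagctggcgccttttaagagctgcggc
Skp2: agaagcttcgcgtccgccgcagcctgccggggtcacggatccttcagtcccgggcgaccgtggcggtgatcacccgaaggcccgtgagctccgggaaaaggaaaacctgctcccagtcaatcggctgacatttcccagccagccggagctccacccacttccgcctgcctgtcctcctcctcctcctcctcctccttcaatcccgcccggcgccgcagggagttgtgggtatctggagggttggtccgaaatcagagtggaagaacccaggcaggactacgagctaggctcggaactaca
Cul1: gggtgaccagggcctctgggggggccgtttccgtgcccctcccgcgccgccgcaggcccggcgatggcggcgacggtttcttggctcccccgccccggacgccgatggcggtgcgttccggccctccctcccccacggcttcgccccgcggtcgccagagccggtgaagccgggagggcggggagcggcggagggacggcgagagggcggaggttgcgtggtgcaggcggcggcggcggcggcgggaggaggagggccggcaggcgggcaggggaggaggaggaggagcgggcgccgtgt
Fbxw9: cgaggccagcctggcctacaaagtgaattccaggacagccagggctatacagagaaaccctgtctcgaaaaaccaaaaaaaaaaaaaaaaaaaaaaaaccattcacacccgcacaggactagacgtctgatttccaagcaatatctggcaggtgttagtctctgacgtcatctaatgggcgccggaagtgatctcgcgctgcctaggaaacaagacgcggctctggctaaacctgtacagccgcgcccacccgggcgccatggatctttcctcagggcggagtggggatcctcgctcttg

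The motifs were searched on both strands. They were the CCAAT box (CCAAT), the cell cycle homology region or CHR (TTTGAA), E2F sites (TTTGGCGC, TTTCCCGC, TTTCGCGC or TTTGCCGC), the SOX core (ACAAT), the FoxO site (GTAAACA) and the E-box (CACGTG). The Fbxo5 window held 3 CCAAT boxes and 1 CHR, all read on the opposite strand and none overlapping, and the other 4 windows shown held no match. Over all windows of a gene, the CCAAT box was found in 3 of the 9 lower members with a promoter (Fbxl2, Fbxo5, Skp2) and in 1 of 5 higher ones (Fbxo17), beside 41.1% of all 27025 genes. The CHR was found in 3 of 9 lower members (Fbxo5, Fbxw5, Skp2) and in 1 of 5 higher ones (Fbxo17), beside 20.2% of genes. The SOX core was found in 1 lower (Skp2, in its other window) and 1 higher member (Fbxo42), beside 34.4% of genes, the FoxO site in Cul7 alone of the called members, beside 4.05% of genes, and the E-box in 2 lower members (Cul1, in another window, and Fbxl2), beside 8.09% of genes. No called member held an E2F site as spelled here, which 2.61% of genes do. A match gives these letters only.

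The remaining lower F-box genes differ in level and in how firmly they rest on the data. Fbxw4, the gene of the limb mutation dactylaplasia in mice, had 1.53, 1.297 and 1.11 FPKM with siSox9 and 2.07, 3.53 and 2.61 FPKM with siNC, the most scattered of the called members. Its log2 fold change was -0.68 (SE 0.14, limma adjusted p = 0.0118), it did not pass without the filter on low genes (adjusted p = 0.0516), and 21.4% of its exon bases are shared with a gene on the opposite strand. Fbxw8, the partner of Cul7, had 8.31, 8.43 and 8.96 FPKM with siSox9 and 11.8, 11.9 and 12.3 FPKM with siNC (log2 fold change -0.44, SE 0.039, adjusted p = 0.000378). Fbxw8 was thus lower where Cul7 was slightly higher, and 33.4% of its exon bases are shared with an opposite-strand gene. Fbxo21 had 7.58, 7.59 and 7.75 FPKM with siSox9 and 10.7, 10.2 and 10.7 FPKM with siNC (log2 fold change -0.41, SE 0.034, adjusted p = 0.000272), with the smallest adjusted p of the members.

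Fbxo38, known for targeting PD-1 in T cells, had 20.2, 19.7 and 19.01 FPKM with siSox9 and 24.0, 23.9 and 23.3 FPKM with siNC (log2 fold change -0.26, SE 0.034, limma adjusted p = 0.00168). Fbxw11, or β-TrCP2, a receptor for β-catenin, IκB and Emi1 and the F-box gene with the highest mean level, had 27.7, 28.2 and 26.5 FPKM with siSox9 and 32.1, 31.0 and 31.1 FPKM with siNC (log2 fold change -0.19, SE 0.034, adjusted p = 0.00696). Both were lower in every siSox9 library, though Fbxw11 did not pass with TPM (adjusted p = 0.0878). Fbxl2, a lipid-anchored receptor, had 1.77, 1.95 and 1.80 FPKM with siSox9 and 2.22, 2.47 and 2.21 FPKM with siNC (log2 fold change -0.22, SE 0.060, adjusted p = 0.0315). That call was lost with no filter, TPM, median-centred or quantile-normalized values (adjusted p from 0.0505 to 0.112) and when any library but siNC replicate 1 was left out (0.0523 to 0.093), and 11.2% of its exon bases are shared with Ubp1 on the opposite strand. The strand setting of the authors' counting is not given in the sources used here, so reads from such overlaps cannot be told apart.

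Of the F-box genes that rose, Fbxw9 and Fbxo33 changed most. Fbxw9 had 16.6, 15.8 and 14.9 FPKM with siSox9 and 13.0, 12.1 and 12.0 FPKM with siNC (127% of siNC, log2 fold change 0.33, SE 0.049, limma adjusted p = 0.00304). Fbxo33, a receptor reported for the Y-box protein YB-1, had 6.36, 6.25 and 6.11 FPKM with siSox9 and 5.04, 4.79 and 4.80 FPKM with siNC (128% of siNC, log2 fold change 0.30, SE 0.038, adjusted p = 0.00157). These were the only risers called under every alternative in which they were tested. Fbxo42, a receptor known for p53, had 7.43, 7.39 and 7.42 FPKM with siSox9 and 6.71, 6.11 and 6.67 FPKM with siNC (log2 fold change 0.17, SE 0.043, adjusted p = 0.0234). Its call was lost without the filter, with TPM and when any siSox9 library or siNC replicate 2 was left out (adjusted p 0.0525 to 0.0691). The number of members called higher was accordingly 2 without siSox9 replicate 1 or 2, 3 without siSox9 replicate 3 or siNC replicate 2 or 3, and 7 without siNC replicate 1. Over all 12009 genes, 1532 were called higher with every library in. That number was 1044, 944 and 1204 without siSox9 replicates 1, 2 and 3, and 1565, 1143 and 1038 without siNC replicates 1, 2 and 3.

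**Figure D3:**
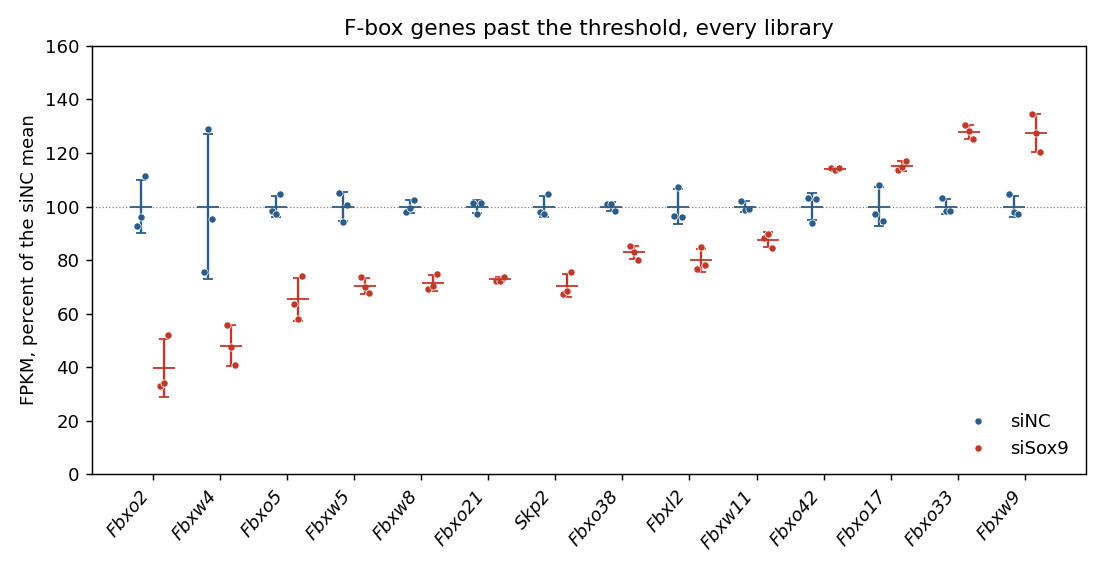
FPKM of 14 of the 15 F-box genes past the threshold in each library, as a percent of the gene's siNC mean, ordered by log2 fold change. Points are libraries, bars the mean with its SD (n = 3), blue siNC and red siSox9; no gene has overlapping groups, Fbxo2 lies at 39.6% of siNC, and Fbxw4 has the widest scatter.

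Well-known receptors outside these calls were close to their siNC levels. Fbxo11, the receptor for BCL6, had 24.8, 24.1 and 23.2 FPKM with siSox9 and 25.3, 24.6 and 24.5 FPKM with siNC (log2 fold change -0.04, limma adjusted p = 0.394). Fbxl5, the iron-sensing receptor for the iron regulatory protein IRP2, had 9.83, 9.59 and 10.3 FPKM against 9.18, 9.43 and 9.66 FPKM (log2 fold change 0.06, adjusted p = 0.249). Fbxo7, a gene mutated in a familial form of parkinsonism, had 2.30, 2.19 and 2.09 FPKM against 2.46, 2.39 and 2.25 FPKM (log2 fold change -0.08, adjusted p = 0.335). In all of these the groups overlapped. Fbxo32, also called atrogin-1, a ligase gene that rises in wasting muscle, had 1.99, 1.83 and 1.96 FPKM with siSox9 and 1.91, 1.79 and 1.71 FPKM with siNC (log2 fold change 0.06, adjusted p = 0.461). Among the 45 members not called, log2 fold changes ran from -0.31 for Fbxo48 (adjusted p = 0.0592) to 0.17 for Cul9. Besides Fbxw7, the groups did not overlap for Fbxo30, which was higher, and for Fbxo10, Fbxo31, Fbxo34 and Fbxo48, which were lower; these genes, Fbxw7 among them, are listed because of that property.

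The 24 members under 1 FPKM were all F-box genes, 12 of them Fbxw. The lowest member tested was Fbxo48 at a mean of 1.01 FPKM, and the highest member left out was Fbxo16 at 0.715 FPKM. With a mean of at least 0.2 FPKM there were 7: Fbxo16, Fbxo27, Fbxl22, Fbxw10, Fbxl16, Fbxo47 and Fbxl21. Of these, Fbxo16 had 69, 54 and 56 reads in the siSox9 libraries and 83, 80 and 80 in the siNC libraries, lower without overlap. Fbxw10 had 68, 51 and 55 reads in the siSox9 libraries and 32, 33 and 31 in the siNC libraries, higher without overlap. Fbxw10 was called higher only when limma voom was run on the recovered reads without a filter (log2 fold change 0.82, adjusted p = 0.0199), a test added after the data were seen. Fbxo16 was not called in that fit (log2 fold change -0.47, voom adjusted p = 0.109). Of the exon bases of Fbxw10, 5.89% are shared with Trim16 on the same strand. The other 17 had means up to 0.15 FPKM. Among them were 11 Fbxw genes, related neighbours on chromosome 9 between which reads may be split, which had at most 3 reads in any library; 2 of these, Fbxw15 and Fbxw28, were listed at 0 in all 6. At this depth these genes were not detectable beyond a few reads in either group.

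Pairs of related or partner members were compared within each library as log2 ratios of FPKM + 1, a scale that shrinks the differences of low genes such as Fbxo2 and Skp2. Of 16 pairs listed, 12 had both genes tested, and in 4 the groups did not overlap (each p = 0.1 by two-sided exact permutation, and 0.3 after Benjamini-Hochberg adjustment over the 12 pairs, so none could pass). The ratio of Fbxo2 to Fbxo6 was lower by 1.04 ± 0.16 (SE) on the log2 scale with siSox9, that of Fbxl2 to its paralog Fbxl20 by 0.38 ± 0.073, and that of Fbxw11 to its paralog Btrc by 0.11 ± 0.035. The ratio of Fbxo4 to Fbxw8, both reported as receptors for cyclin D1, was higher by 0.35 ± 0.13. Fbxl20 itself had 6.41, 6.55 and 5.78 FPKM with siSox9 and 5.84, 5.44 and 5.13 FPKM with siNC (log2 fold change 0.16, limma adjusted p = 0.0788). It passed as higher with median-centred or quantile-normalized values, with the replicate block, by voom (0.19, adjusted p = 0.0144) and without siSox9 replicate 3 or siNC replicate 1 (0.21 and 0.20, adjusted p = 0.0454 in both). In the other 8 pairs the groups overlapped on this scale; the differences were 0.01 ± 0.077 for Cul4a to Cul4b, -0.02 ± 0.060 for Cul7 to Cul9, -0.06 ± 0.081 for Rbx1 to Rnf7 and -0.05 ± 0.066 for Skp2 to Cks1b, the small protein that Skp2 needs to bind p27. Those for Fbxo32 to Fbxo25, Fbxo10 to Fbxo11, Fbxo30 to Fbxo40 and Fbxo6 to Fbxo44 were 0.05 ± 0.043, -0.09 ± 0.073, 0.10 ± 0.092 and 0.24 ± 0.15. With 0.1 added to FPKM in place of 1, the difference was -1.36 for Fbxo2 to Fbxo6 and -0.18 for Skp2 to Cks1b, whose groups then did not overlap (p = 0.1 by exact permutation), while those of Fbxw11 to Btrc then overlapped (-0.09, p = 0.2 by exact permutation).

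Genes that work on the cullins as enzymes or exchange factors are set beside the 30.4% of all genes that were called. Neddylation, the attachment of the ubiquitin-like protein Nedd8, switches cullins on. Of 14 genes of neddylation and of cullin exchange, none was called by limma (median log2 fold change -0.019), and 5 had an unadjusted p under 0.05. Limma voom on the recovered reads, added after the data were seen, called 3 of 13, Cand2, Dcun1d3 and Uba3, all lower. That fit called 3711 of 10479 genes. Run without a filter, voom called 1 gene of the list, beside 3449 of 25759 genes. Nedd8 itself had 146 ± 5.67 FPKM with siSox9 and 143 ± 10.1 FPKM with siNC (SD, n = 3 each; log2 fold change 0.04, adjusted p = 0.668). Of the 10 genes of the COP9 signalosome, which removes Nedd8 again, 2 rose and 1 fell (median -0.019). Cops3 had 9.59, 9.41 and 9.74 FPKM with siSox9 and 12.6, 13.0 and 11.8 FPKM with siNC (log2 fold change -0.35, SE 0.043, adjusted p = 0.00138), while Cops7a and Cops2 rose by 0.14 and 0.13 on the log2 scale (adjusted p = 0.0105 and 0.0298). Of the 8 E1 and E2 enzymes that supply ubiquitin to these ligases, Uba1 and Ube2g1 rose by 0.13 and 0.11 (adjusted p = 0.0146 and 0.0455) and Ube2d1 fell by 0.24 (adjusted p = 0.0105).

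Adaptor, accessory and receptor genes, most of them of the other cullins, were mixed. Beside them, 12.8% of all genes tested rose and 17.6% fell. Of 5 adaptor and accessory genes tested, Ddb1, the adaptor of Cul4, rose from 255 ± 7.17 to 283 ± 2.69 FPKM (SD, n = 3 each; log2 fold change 0.15, limma adjusted p = 0.0115). Eloc (elongin C) fell by 0.20 on the log2 scale, and Elob (elongin B) was not called (-0.06, limma adjusted p = 0.392). The accessory genes Cks1b, the partner of Skp2, and Cks2 fell by 0.30 and 0.29. Of 48 receptors tested, 3 rose and 13 fell (median -0.044). Klhl21 and Rhobtb3, which bind Cul3, fell most among the called on the log2(FPKM + 1) scale (log2 fold changes -0.73 and -0.54, adjusted p = 0.000126 and 0.000157), to 58.0% and 66.9% of siNC, while the low Lrr1, a Cul2 receptor, was at 50.9% of siNC. Spop, a Cul3 receptor, and Socs6, a Cul5 receptor, rose most on the same scale (0.36 and 0.28, adjusted p = 0.00116 and 0.00151). Of 5 tested F-box genes that carry other names, the histone demethylase gene Kdm2a rose (0.28, adjusted p = 0.0126), Ccnf, which encodes cyclin F, fell (-0.70, adjusted p = 0.000457), and Btrc, or β-TrCP1, was not called (-0.07, adjusted p = 0.356).

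The transcripts of well-known SCF substrates differed in both directions. Of 31 tested, 5 rose and 11 fell (median log2 fold change -0.10). Over all genes tested 12.8% rose and 17.6% fell, shares that also stand beside the further lists below. Cdkn1c and Cdkn1a, the cell cycle inhibitors p57 and p21, had 6.22 ± 0.488 against 3.20 ± 0.173 FPKM and 294 ± 2.67 against 230 ± 2.68 FPKM (siSox9 against siNC, SD, n = 3 each; log2 fold changes 0.78 and 0.36, limma adjusted p = 0.000234 and 0.000192). Cdkn1b, the inhibitor p27, went the other way, to 70.2% of siNC (log2 fold change -0.45, limma adjusted p = 0.000748). Rrm2, a subunit of ribonucleotide reductase, and Ccne1, cyclin E1, fell (-1.09 and -0.64, adjusted p = 6.03e-05 and 0.00302). These values are of transcripts and carry no measure of the proteins on which the ligases act. Of 17 tested genes of the anaphase-promoting complex, a related ligase with a cullin-like subunit, 2 rose and 7 fell (median -0.088); Cdc20 and Ube2c fell most (-0.86 and -0.73, adjusted p = 0.000108 and 5.11e-05), and Anapc16 and Anapc7 rose (0.17 and 0.15, adjusted p = 0.0102 and 0.0202). Of 11 tested FoxO targets and atrophy genes, 1 rose, Foxo1 itself (0.17, limma adjusted p = 0.0482), and 3 fell. Those were Sesn3, Sesn1 and the FoxO gene Foxo3 (-0.34, -0.23 and -0.22, limma adjusted p = 0.0012, 0.0214 and 0.0141).

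All 20 proliferation markers fell with siSox9 (median log2 fold change -0.61), and their summed level was 170 to 183 FPKM with siSox9 and 255 to 261 FPKM with siNC. Plk1 and Mki67 fell most, with log2 fold changes of -0.82 and -0.78 (limma adjusted p = 0.000209 and 8.27e-05). The lower Fbxo5 and Skp2 moved with this list; its part in their values was not tested, and in bulk RNA fewer dividing cells and less RNA per cell cannot be told apart.

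**Figure D4:**
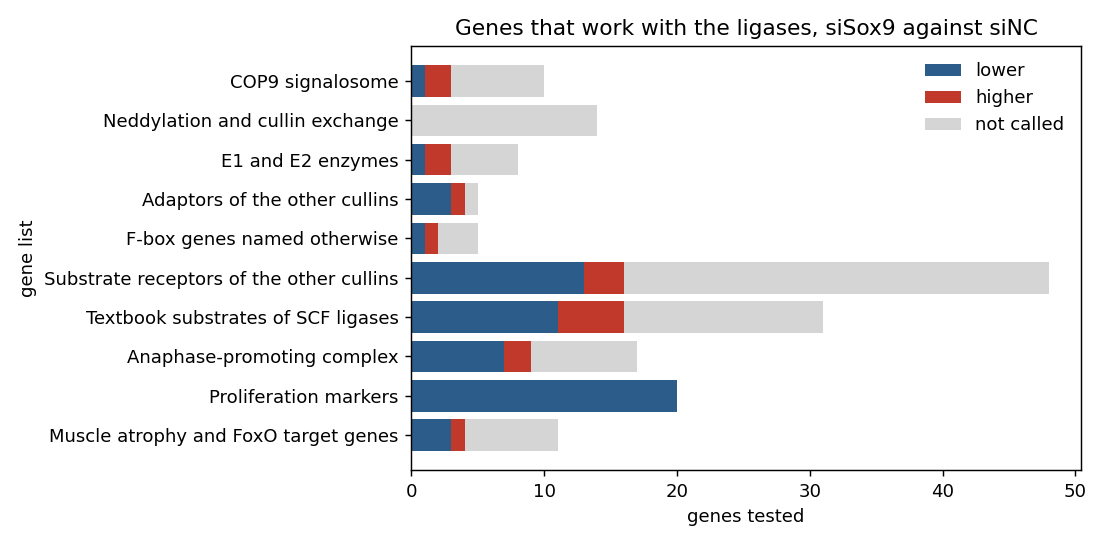
Number of genes tested in each list of genes that work with the ligases or are acted on by them, split into those lower (blue), higher (red) and not called (grey) with siSox9 by limma at an adjusted p under 0.05. All 20 proliferation markers are lower and none of the 14 neddylation and exchange genes is called in this test (3 of 13 by voom on recovered reads, and 1 by voom without a filter).

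Markers of the labelled cells were present: of 10 tubule epithelium genes, 9 were tested, Krt8 and Krt18 had means of 2089 and 1194 FPKM with siNC, and Slc34a1, a transporter of mature proximal tubules, had at most 0.00895 FPKM. Cdh16 and Havcr1 were higher with siSox9 (log2 fold changes 0.36 and 0.18, limma adjusted p = 0.000307 and 0.0366). The 7 listed fibroblast genes, 6 of them in the table, summed to 660 to 713 FPKM with siSox9 and 710 to 749 FPKM with siNC, nearly all of it Acta2, and neither of the 2 tested was called. The 6 macrophage genes summed to 111 to 122 against 99.6 to 107 FPKM, and 1 of 5 tested, Lyz2, was higher. The 5 endothelial genes summed to 2.91 to 3.10 against 3.22 to 4.12 FPKM, with none called of 1 tested. Of 4 podocyte genes, Podxl was lower and the defining Nphs1 was at 0 in every library. Muscle and germ cell genes summed to at most 0.028 and 0.815 FPKM. The part of these cells in the members' values was not tested.

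An siRNA can also lower transcripts that carry a match to its seed, bases 2 to 8 of the guide strand. When the longest annotated 3′ UTR was searched, a match to the siSox9 seed was found in 3 of the 12 lower members (Fbxo38, Fbxw8 and Skp2), in none of the 6 higher members and in 3 of the 45 not called (Fbxl18, Fbxl19 and Fbxw17). Over all genes tested with an annotated 3′ UTR, 16.2% of the lower, 4.41% of the higher and 7.09% of the uncalled genes held one. The part of such matches in the values of Fbxo38, Fbxw8 and Skp2 was not tested; Cul1, Cul3, Fbxo2, Fbxo5, Fbxo21, Fbxw4, Fbxw5, Fbxw11 and Fbxl2 held none.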

How the data were processed

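RNA-Seq was made from 3 siSox9 and 3 siNC libraries of mouse TECs. The authors deposited FPKM per gene; the labels' processing notes list Bowtie2 2.2.3, HISAT2 2.1.0, TopHat2 and mm9 without roles, whereas 93.4% of the gene positions are those of GENCODE M21 (GRCm38). The siNC columns are named as such, and the other 3 were taken as siSox9, the only other siRNA. Every per-sample column was used. Reads were recovered from FPKM and exon lengths (27948 genes whole within 0.02 reads). Groups were compared with limma 3.58.1 (R 4.3.3, trend, no block) on log2(FPKM + 1), for genes averaging at least 1 FPKM, with Benjamini-Hochberg adjusted p under 0.05; fold changes of low genes are understated on this scale. Limma was tested on simulated data. Ratios were compared by exact permutation (scipy 1.17.1). Named were Sox9, all cullins, Rbx1, Rnf7, Skp1a, Skp2, called F-box members without overlap (up to 10 each way), 8 well-known receptors, the 5 highest members, pairs, and the 2 largest changes each way of each list; some further members are named for count or property, and 1 member is counted but not reported here. Members and lists were chosen with earlier results of these data known. Alternatives were a pseudocount of 0.1, a filter at 5 FPKM or none, rescaling (TPM, median centring, quantile normalization), a replicate block and leaving out each library; limma voom on recovered reads was added after the data were seen.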

Additional observations from a re-analysis of the deposited data

How the results depend on the processing

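Of the 18 members called, 10 passed in the same direction under every alternative in which they were tested: Cul1, Fbxo2, Fbxo5, Fbxo21, Fbxo33, Fbxo38, Fbxw5, Fbxw8, Fbxw9 and Skp2. Fbxo2, Skp2, Fbxw4 and Fbxl2 lay under the minimum of 5 FPKM, and Fbxo38 had no recovered reads for voom. No called member changed sign. Of the uncalled members followed singly through the settings, Rnf7, Rbx1, Fbxo4 and Fbxo44 each passed when 1 library was left out, Fbxl20 under the settings given beside its values, Fbxw7 with quantile normalization and Cul9 by voom with the filter but not without it. Fbxo31, Fbxo34 and Fbxo48 were not followed singly, so a call of theirs under another setting is not shown. The members called numbered 18 of 63 tested, beside 3650 of 12009 genes. With TPM they were 12 of 63, beside 2549 genes, and with the replicate block 17 of 63, beside 3262 genes. Without the filter they were 13 of 85 members tested, beside 2700 of 28122 genes. With voom they were 20 of 55, beside 3711 of 10479 genes. The members called higher numbered 6, but 3 without the filter and 3 with TPM, and 2 to 7 when a library was left out. Over all genes the higher were 1532, but 1117 without the filter, 1217 with TPM and 944 to 1565 when a library was left out. The median log2 fold change of the members was -0.027, and moved to -0.0055 without the filter, -0.0019 at a minimum of 5 FPKM, -0.00079 with TPM, -0.00024 when median-centred and 0.015 with quantile normalization. Over all genes, 1532 were higher and 2118 lower, but 1959 and 1765 when median-centred, and 1812 and 1797 with quantile normalization; TPM called 2549.

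The deviations of same-numbered libraries had correlations of 0.065, -0.05 and 0.0078, within the range of differently numbered ones (-0.082 to 0.090). Taken within groups of 3, such deviations cannot tell whether the libraries were prepared in pairs. With the replicate block 3262 of 12009 genes were called, and Cul7 and Fbxo17 lost their call among the members. The FoxO and atrophy list gave 2 genes with the block.

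Among the lists, the receptors of other cullins called fell from 16 to 10 without the filter and 8 with TPM (10 to 17 when a library was left out, 10 without siSox9 replicate 1), the anaphase-promoting complex from 9 to 5 with TPM, and the FoxO and atrophy list from 4 to 2 without the filter and 1 with TPM (2 to 4, with 2 without siSox9 replicate 1 or 2 or siNC replicate 2). When a library was left out, the neddylation list gave 0 to 1 (1 without siNC replicate 1 or 2), the E1 and E2 enzymes 1 to 2 (1 without siSox9 replicate 2) and the adaptor and accessory genes 2 to 5 (2 without siSox9 replicate 2).

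Small values of uncalled genes and ratios changed sign when a library was left out. Cul5 ran from -0.010 to 0.023 on the log2 scale, Fbxo25 from -0.012 to 0.035, Fbxo6 from -0.042 to 0.11 and Fbxo40 from -0.10 to 0.049, with 0.016 for Fbxo40 after quantile normalization. The ratio of Cul4a to Cul4b ran from -0.051 to 0.077, Cul7 to Cul9 from -0.053 to 0.036, Rbx1 to Rnf7 from -0.10 to 0.0035 and Skp2 to Cks1b from -0.096 to 0.010. The cause of these changes was not tested. Groups of 3 limit all calls, and the low members rest on few reads.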
